A study of Mus musculus with 3 samples.

Results

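Notch signalling passes between touching cells. A transmembrane ligand of the Delta-like or Jagged families on one cell binds a Notch receptor on its neighbour, proteases then cut the receptor, and its intracellular domain enters the nucleus and joins the DNA-binding protein RBPJ to switch on transcriptional repressors of the Hes and Hey families. In lymphoid tissue, Delta-like ligands on stromal cells are known to act on lymphocytes through Notch2, which marginal zone B cells need, and Notch3 is best known from the mural cells that wrap blood vessels. The genes described here are 9 of the 51912 in the files, chosen by symbol: 3 ligands (Dll1, Dll4 and Jag1), 3 receptors (Notch1, Notch2 and Notch3) and 3 targets (Hes1, Hey1 and Heyl).

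They were measured by droplet single-cell RNA sequencing of lymph node (LN) stromal cells from C57BL/6 mice that carried a Cxcl13-Cre/tdTomato transgene, in which TdTomato labels cells that use or have used the promoter of the B cell-attracting chemokine CXCL13. Cells positive for podoplanin and TdTomato were sorted from the LNs of several pooled mice; the labels add that CD31 and CD45 were negative, which the study's methods do not state for this sort. A pair of libraries came from mice given 2 antigen immune complexes (ICs), the first 7 days and the second 24 hours before analysis (2-IC replicates 1 and 2, whose titles give the same treatment but whose short descriptions differ), and 1 library came from mice given a single IC 24 hours before (1-IC). No source used here gives the age of the mice or ties individual mice to libraries. The p-values therefore measure how much the differences between types vary over these 3 libraries, which may be partly technical.

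The libraries held 20607903, 12788101 and 3766526 unique molecular identifiers (UMIs, each standing for 1 captured RNA molecule) in 3790, 1029 and 667 barcodes. After filtering, 1526, 391 and 326 barcodes with a median of 4701, 14732 and 5979 UMIs were kept, 2243 of 5486 in all. The 2-IC libraries shared 76 barcode sequences, 15 of them among the kept barcodes. 1288 kept barcodes fell into 5 stromal types, each set by at least 2 UMIs of a gating gene: follicular dendritic cells (FDCs) by Cr2 (149 barcodes), marginal reticular cells (MRCs) by Madcam1 (44), interfollicular reticular cells (IFRCs) by Tnfsf11 (319), T-B border reticular cells (TBRCs) by Fmod (91) and medullary reticular cells (MedRCs) by Inmt (685), and all types but the first held no Cr2 UMI. The FDC gate also held Fcer2a at 230 to 268 CPM (UMIs of a gene scaled to a total of 1000000), against 0 to 33.9 CPM in MRCs. Cxcl13, at 21788 to 54627 CPM in FDCs, did not set them apart from MRCs, at 24058 to 31920 CPM. Nor did Madcam1, the gating gene of MRCs, at 224 to 515 CPM in FDCs and 268 to 576 CPM in MRCs. The FDC gate set no limit on Madcam1, so barcodes with it were split between these types by Cr2 alone. The IFRC gate was not pure either, since it held Inmt, the gating gene of MedRCs, at 297 to 764 CPM. The FDC gate held Inmt at 27.3, 301 and 0 CPM in 2-IC replicate 1, 2-IC replicate 2 and 1-IC. The remaining 955 kept barcodes (42.6%) passed no single gate.

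Levels are given as CPM of all UMIs summed over a type in a library. UMIs were summed per type and library and 6819 genes were tested with edgeR's quasi-likelihood test with the library as a block, and adjusted p-values are Benjamini-Hochberg values over all 6819. Of the 9 members 7 passed the filter on low counts. Hey1 and Heyl, with 34 and 15 UMIs in the 5 types, did not.

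The promoters of 4 of the 5 members that differed among the types are shown to place the genes on the genome and to show which transcription factor motifs lie near their starts. The RefSeq promoters used here (GRCm38.p6, the build of the files) run from 250 bases before the start to 50 after it and cover 6 members in 7 entries, since Dll1 has more than one start. Hes1, Hey1 and Heyl have no entry among them. Both strands were searched for the RBPJ core TGGGAA, the NF-kB motif (GGGA and CC with any 4 bases between them) and the E-box CACGTG, present in 25.6%, 20.7% and 7.15% of 32851 promoters. Capitals mark NF-kB motif matches, the only kind found, and the sequences read 5′ to 3′ on the strand of the gene. The Dll4 promoter lies at chr2:119325534-119325833 (plus strand), that of Dll1 at chr17:15376883-15377182 (minus), that of Jag1 at chr2:137116471-137116770 (minus) and that of Notch3 at chr17:32166841-32167140 (minus).
Dll4: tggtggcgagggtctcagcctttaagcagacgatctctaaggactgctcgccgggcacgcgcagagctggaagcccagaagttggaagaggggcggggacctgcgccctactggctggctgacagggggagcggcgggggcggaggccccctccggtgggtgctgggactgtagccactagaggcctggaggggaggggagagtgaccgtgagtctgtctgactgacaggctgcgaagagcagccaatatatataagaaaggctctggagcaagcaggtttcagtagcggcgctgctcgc
Dll1: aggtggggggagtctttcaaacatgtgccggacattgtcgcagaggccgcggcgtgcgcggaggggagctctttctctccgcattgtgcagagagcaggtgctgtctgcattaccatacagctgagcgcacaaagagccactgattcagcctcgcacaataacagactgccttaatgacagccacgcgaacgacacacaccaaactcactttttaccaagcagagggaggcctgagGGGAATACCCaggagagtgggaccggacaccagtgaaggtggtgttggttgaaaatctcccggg
Jag1: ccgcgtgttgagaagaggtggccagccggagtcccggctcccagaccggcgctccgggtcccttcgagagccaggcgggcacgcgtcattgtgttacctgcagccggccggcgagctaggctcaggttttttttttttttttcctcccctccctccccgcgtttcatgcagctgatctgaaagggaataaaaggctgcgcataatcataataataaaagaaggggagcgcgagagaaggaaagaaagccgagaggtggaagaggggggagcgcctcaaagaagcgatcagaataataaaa
Notch3: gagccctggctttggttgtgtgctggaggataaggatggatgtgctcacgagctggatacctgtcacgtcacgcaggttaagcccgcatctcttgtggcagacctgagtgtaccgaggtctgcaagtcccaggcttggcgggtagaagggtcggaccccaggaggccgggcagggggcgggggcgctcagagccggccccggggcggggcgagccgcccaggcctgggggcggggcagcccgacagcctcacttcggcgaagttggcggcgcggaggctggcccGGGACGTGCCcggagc
Neither the Dll4 nor the Jag1 window held any of the searched letters. The match in Dll1 began 14 bases before the start and the match in Notch3 34 bases after it. The other Dll1 entry and Notch2 also held an NF-kB match, and the Notch1 entry none. The start used for Notch1 lies 12841 bases from the gene start in GENCODE, and that of the other Dll1 entry 1049 bases. These 2 windows therefore do not cover the GENCODE start. A match is a run of letters and does not show that a factor binds there.

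By mean over libraries, the ligands Dll4 and Dll1 were highest in MRCs and FDCs. These are the reticular cells at the edge and in the centre of the B cell follicle. The ligand Jag1, the receptor Notch3 and the target Hes1 had their lowest means in FDCs. No tested member was called between FDCs and MRCs, where 5.65% of all genes were. Dll1 in FDCs was not called against IFRCs (edgeR adjusted p = 0.539) or TBRCs (adjusted p = 0.374). 5 of the 7 tested members differed among the 5 types (Dll1, Dll4, Jag1, Notch3 and Hes1), where 30.2% of all tested genes did. Against the mean of the other 4 types, 1 member was higher in FDCs (Dll4; 13.3% of all genes were) and 3 were lower (Jag1, Notch3 and Hes1; 11.1% of all genes were). A member passes the low-count filter through the types in which it is high, so these counts describe the members and do not set them apart from other genes.

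**Figure D1:**
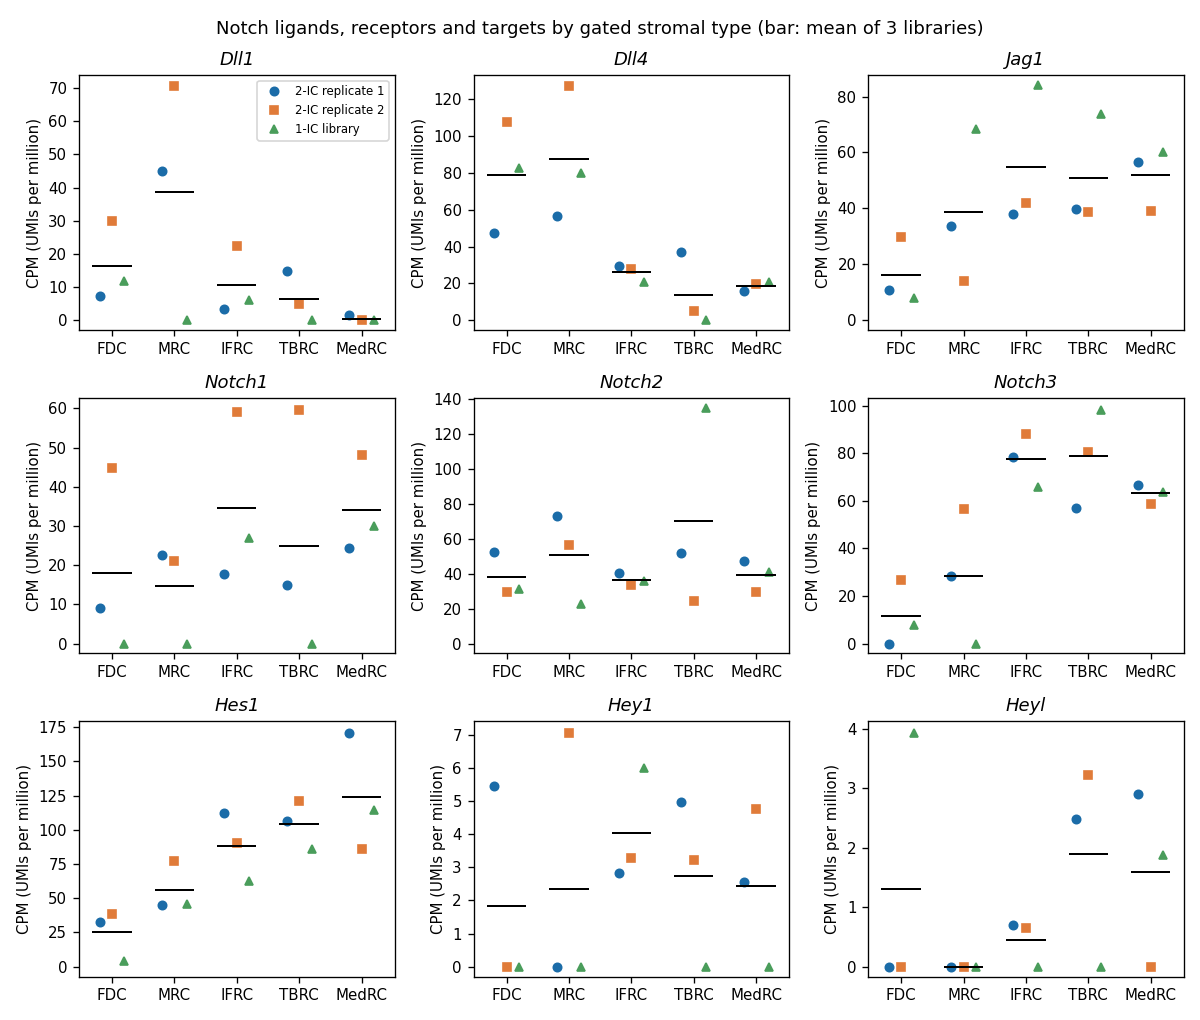
Level of each member (CPM, y axis, a separate linear scale for each gene) in the 5 gated stromal types, with a point for each library and a bar for the mean of 3 libraries. Dll4 points of FDCs and MRCs, from 47.3 to 127 CPM, lie above all points of the other types, and Hes1 points of FDCs, from 3.93 to 38.8 CPM, lie below all others.

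Dll4 encodes a Delta-like ligand that activates Notch receptors, and its gene spans chr2:119325784-119335962. In FDCs it was at 47.3 CPM in 2-IC replicate 1, 107 CPM in 2-IC replicate 2 and 82.5 CPM in the 1-IC library (79.1 ± 30.2, mean ± SD, n = 3). In MRCs, it was at 56.4, 127 and 80.0 CPM in the same order (87.8 ± 35.9, SD, n = 3). The other types were lower in every library: 20.99 to 29.6 CPM in IFRCs, 16.0 to 20.6 CPM in MedRCs and 0 to 37.2 CPM in TBRCs, so that FDCs and MRCs did not overlap them. The 0 of TBRCs was in the 1-IC library, whose 10 barcodes would allow a level of up to 36.9 CPM at a count of 0. In FDCs Dll4 was higher than the mean of the other 4 types by 1.42 ± 0.33 (log2 fold change ± SE, adjusted p = 0.00257). It was higher by 1.54 than in IFRCs (adjusted p = 0.00370, 24.3% of all genes differed in this pair), by 2.00 than in MedRCs (adjusted p = 0.000234, 31.5%) and by 2.20 than in TBRCs (adjusted p = 0.00315, 22.4%). The difference between MRCs and FDCs was 0.08 ± 0.46 (adjusted p = 0.967), which leaves room for a difference of either sign. MRCs exceeded MedRCs by 2.08 (adjusted p = 0.00528, 13.9% of all genes) and TBRCs by 2.28 (adjusted p = 0.0188, 9.4%), while the difference from IFRCs, 1.61, missed the threshold (adjusted p = 0.0507, 6.17%).

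The FDC contrast of Dll4 was 2.28 without 2-IC replicate 1 (adjusted p = 2.2e-05) and 0.92 without 2-IC replicate 2 (adjusted p = 0.035). It was 0.65 (adjusted p = 0.0743), and no longer called, when barcodes with UMIs of the 13 contaminant genes, among them the B cell genes Cd79a and Cd79b, stayed in. The FDC barcodes so removed, 135, 76 and 31 in 2-IC replicate 1, 2-IC replicate 2 and 1-IC, held Dll4 at 24.0, 16.9 and 38.2 CPM, each below the kept FDCs of the same library. As a reference for B cells, 498 barcodes with Cd79a or Cd79b UMIs and almost no stromal matrix RNA held 1 Dll4 UMI in 2109499. With every barcode thinned to 2000 UMIs, Dll4 was seen in 9.63% of 135 FDCs and 15.9% of 44 MRCs, against 4.19% of 310 IFRCs, 6.59% of 91 TBRCs and 2.74% of 656 MedRCs. The exact 95% intervals, which cover counting error only, were 5.23 to 15.9%, 6.64 to 30.1%, 2.25 to 7.06%, 2.46 to 13.8% and 1.63 to 4.30%. Those of FDCs thus overlapped those of IFRCs and TBRCs. Without thinning, the mean shares over libraries were 28.2%, 41.0%, 21.8%, 11.2% and 11.0% in that order.

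Dll1, the other Delta-like ligand (chr17:15367354-15376872), followed the same order at the top but rested on few UMIs, 89 in the 5 types together. In MRCs it was at 45.1 and 70.5 CPM in the 2-IC replicates 1 and 2, and at 0 in the 1-IC library, where 13 barcodes allow up to 34.3 CPM. In FDCs, it was at 7.28, 29.8 and 11.8 CPM in 2-IC replicate 1, 2-IC replicate 2 and 1-IC. IFRCs held 3.53, 22.3 and 6.00 CPM and TBRCs 14.9, 4.84 and 0 CPM, and both overlapped FDCs. In MedRCs, the type with the most barcodes, 4 Dll1 UMIs were found, all in 2-IC replicate 1 (1.45 CPM). Dll1 differed among the types (adjusted p = 0.000857), and the called pairs were those of MedRCs with MRCs (log2 fold change 5.39 ± 0.95, adjusted p = 0.000336), FDCs (4.04 ± 0.95, adjusted p = 0.00197) and IFRCs (3.37 ± 0.82, adjusted p = 0.0211, 3.3% of all genes). FDCs against the mean of the other types gave 1.14 ± 0.64 (adjusted p = 0.219). Dll1 missed the low-count filter when either 2-IC library was left out and when shared barcodes were left out. It also missed it at 3 UMIs per gate and with cells thinned to 2000 UMIs, so its test was not repeated in any of these settings.

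Jag1, a Jagged ligand that binds the same receptors and is encoded at chr2:137081456-137116644, was spread over the other reticular cells and lowest in FDCs. In FDCs it was at 10.9, 29.8 and 7.86 CPM in 2-IC replicate 1, 2-IC replicate 2 and 1-IC (16.2 ± 11.9, SD, n = 3). IFRCs held 38.1, 42.1 and 84.0 CPM in that order, TBRCs 39.7, 38.7 and 73.8 CPM, and MedRCs 56.6, 39.3 and 60.0 CPM. None of these 3 types overlapped FDCs, whereas MRCs did, at 33.9, 14.1 and 68.5 CPM. Jag1 was lower in FDCs than in the mean of the other 4 types by a log2 fold change of -1.44 ± 0.38 (adjusted p = 0.00720). In pairs it exceeded FDCs in IFRCs by 1.51 (adjusted p = 0.00603), in TBRCs by 1.52 (adjusted p = 0.0190) and in MedRCs by 1.75 (adjusted p = 0.000826), and the other 3 types and MRCs did not differ from one another beyond their spread. The FDC call was lost without 2-IC replicate 1 (-1.07, adjusted p = 0.185) and without the 1-IC library (-1.01, adjusted p = 0.122), and the contrast was -2.31 (adjusted p = 0.000149) without 2-IC replicate 2.

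Notch3, a receptor encoded at chr17:32120820-32166852, was lowest in FDCs and highest in TBRCs and IFRCs. FDCs held 0 UMIs in 2-IC replicate 1, which allows up to 5.46 CPM, 26.8 CPM in 2-IC replicate 2 and 7.86 CPM in 1-IC (11.6 ± 13.8, SD, n = 3). MRCs were at 28.2, 56.4 and 0 CPM in the same order. IFRCs held 78.3, 88.1 and 66.0 CPM, TBRCs 57.0, 80.6 and 98.3 CPM, and MedRCs 66.8, 58.9 and 63.8 CPM. Every FDC value therefore lay below every value of these 3 types. MRC values did too, but narrowly, at 56.4 against 57.0 CPM. The 56.4 CPM came from 8 UMIs (exact 95% interval 24.3 to 111), and the 0 in 1-IC allows up to 34.3 CPM. Notch3 was lower in FDCs than in the mean of the other 4 types by a log2 fold change of -2.51 ± 0.50 (adjusted p = 0.000541). It was higher than in FDCs by 2.91 in IFRCs (adjusted p = 6.52e-05), by 2.84 in TBRCs (adjusted p = 0.000399) and by 2.72 in MedRCs (adjusted p = 0.000113), while MRCs against FDCs gave 1.56 ± 0.81 (adjusted p = 0.344). MRCs were below IFRCs, TBRCs and MedRCs in mean by 1.35, 1.28 and 1.16, and none of these differences passed (adjusted p = 0.148, 0.183 and 0.163). The FDC contrast was -4.20 without 2-IC replicate 2 (adjusted p = 2.4e-05) and -1.57 without 2-IC replicate 1 (adjusted p = 0.0441).

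After thinning to 2000 UMIs, 1 of 135 FDCs (0.741%, exact 95% interval 0.0188 to 4.06%) and 0 of 44 MRCs (up to 8.04%) held a Notch3 UMI, against 11.9% of IFRCs, 17.6% of TBRCs and 11.4% of MedRCs. These intervals cover counting error only. Without thinning the mean shares were 4.56% in FDCs, 32.7% in MRCs, 45.5% in IFRCs, 56.9% in TBRCs and 34.7% in MedRCs. The MRC mean varied widely over libraries (SD 46.3), and 9 of the 44 MRC barcodes held a Notch3 UMI. Since Notch3 also marks mural cells of vessels, a list of 9 perivascular genes was summed in each type and ranged from 1143 to 2086 CPM over all 15 sums. Its abundant genes moved both ways in the FDC contrast: Abcc9 (-1.65, adjusted p = 2.82e-07), Kcnj8 (-2.42, adjusted p = 1.66e-05) and Acta2 (-1.26, adjusted p = 0.00340) were lower in FDCs, as Notch3 was, and Myh11 (1.59, adjusted p = 1.46e-08) and Rgs5 (0.96, adjusted p = 0.00224) were higher. Cspg4, Mcam, Ndufa4l2 and Higd1b, the others of the list, had means of 0 to 4.30 CPM. Over the 5 types, barcodes with a Notch3 UMI held the whole list at 1849, 1817 and 1508 CPM in 2-IC replicate 1, 2-IC replicate 2 and 1-IC, and barcodes without one at 1633, 1525 and 1384 CPM. Rgs5 alone was at 515, 645 and 296 CPM with and at 552, 631 and 441 CPM without. This split pools the 5 types, so it cannot be told apart from the differences between types. FDCs had the highest mean of Rgs5 among the 5 types (778 CPM), and 4 of 149 FDC barcodes held a Notch3 UMI. The part of mural cell RNA in the Notch3 values was not tested.

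**Figure D2:**
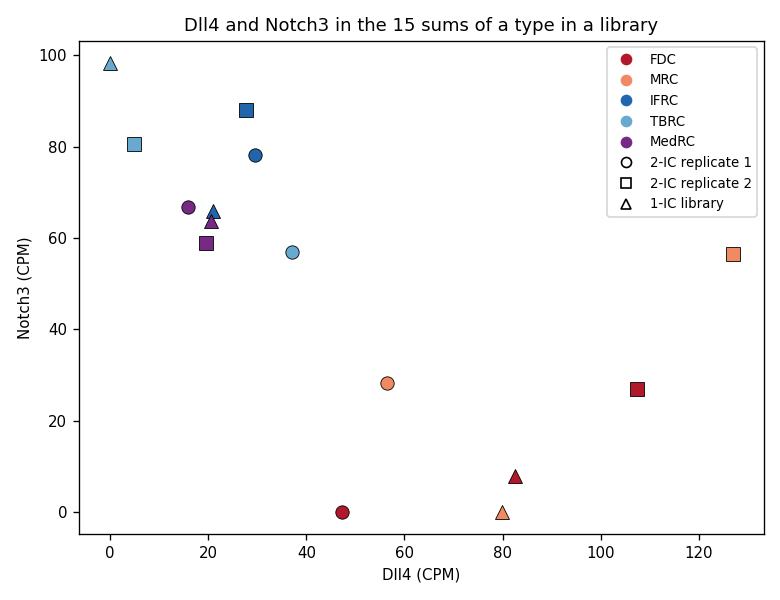
Notch3 against Dll4 (both CPM, linear axes) in the 15 sums of a type in a library, with colour for the type and shape for the library. FDCs and MRCs lie at 47.3 CPM of Dll4 or more with Notch3 at 56.4 CPM or less, and the other types at 37.2 CPM of Dll4 or less with Notch3 at 57.0 CPM or more. The 56.4 CPM is an MRC value from 8 UMIs (exact 95% interval 24.3 to 111).

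Notch2, the receptor with a known role in marginal zone B cells, and Notch1 did not pass the test among the types (adjusted p = 0.775 and 0.326). Notch2 had means of 38.0 ± 12.8 CPM in FDCs, 50.9 ± 25.7 in MRCs, 36.6 ± 3.37 in IFRCs, 70.5 ± 57.8 in TBRCs and 39.5 ± 9.04 in MedRCs (SD, n = 3 each). The high mean of TBRCs came from the 1-IC library (135 CPM, 11 UMIs), against 52.0 and 24.2 CPM in the 2-IC replicates 1 and 2. Its FDC contrast was -0.13 ± 0.29 (adjusted p = 0.811). Notch1 was at 9.10, 44.7 and 0 CPM in FDCs, 22.6, 21.1 and 0 CPM in MRCs, 17.6, 59.1 and 27.0 CPM in IFRCs, 14.9, 59.7 and 0 CPM in TBRCs and 24.3, 48.2 and 30.0 CPM in MedRCs, in the order 2-IC replicate 1, 2-IC replicate 2 and 1-IC. In every type but MRCs, 2-IC replicate 2, the library with the most UMIs per barcode, held the highest Notch1 value. The Notch1 contrast was -0.56 ± 0.45 (adjusted p = 0.420).

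Notch2 and Hes1 were also present in B cells. The 498 B cell barcodes, with a median of 3370 UMIs, held 176 Notch2 UMIs (83.4 CPM, in 26.9% of barcodes) and 160 Hes1 UMIs (75.8 CPM, in 21.3%), but no more than 7 UMIs of any other member. Kept FDCs held the B cell gene Ms4a1 at 3.93 to 7.28 CPM, against 778 to 996 CPM in the B cell barcodes of the same libraries. In the removed FDC barcodes Hes1 was at 65.7, 56.4 and 109 CPM and Notch2 at 58.6, 36.2 and 76.4 CPM in 2-IC replicate 1, 2-IC replicate 2 and 1-IC. With these barcodes included, the FDC contrast of Notch2 was 0.25 (adjusted p = 0.381), that of Hes1 -0.82 (adjusted p = 0.000743), and that of Notch1 passed at -1.34 (adjusted p = 0.00247). The part of B cell RNA in these values was not tested.

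Of the targets, Hes1, a transcriptional repressor that many signals besides Notch can induce (chr16:30064384-30067796), had the same order as Notch3 at its low end. FDCs held 32.8, 38.8 and 3.93 CPM in 2-IC replicate 1, 2-IC replicate 2 and 1-IC (25.1 ± 18.6, SD, n = 3), the last of these a single UMI. MRCs were at 45.1, 77.5 and 45.7 CPM and IFRCs at 112, 90.0 and 63.0 CPM. TBRCs were at 107, 121 and 86.1 CPM and MedRCs at 171, 85.6 and 114 CPM. FDCs overlapped no other type. Hes1 was lower in FDCs than in the mean of the other 4 types by a log2 fold change of -1.72 ± 0.32 (adjusted p = 0.000260). It was higher than in FDCs by 2.24 in MedRCs (adjusted p = 5.61e-06), 2.03 in TBRCs (adjusted p = 0.000184) and 1.69 in IFRCs (adjusted p = 0.000491), and higher in MedRCs than in MRCs by 1.33 (adjusted p = 0.0162). The difference between MRCs and FDCs, 0.92 ± 0.52, was not called (adjusted p = 0.396, 5.65% of all genes). After thinning to 2000 UMIs, Hes1 was seen in 4.44% of FDCs, 15.9% of MRCs, 19.7% of IFRCs, 23.1% of TBRCs and 19.2% of MedRCs.

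Summed early response genes, a list of 8 that includes Fos, Jun and Egr1 and rises in cells during tissue digestion, moved in the same order over the types. Their sum was 7358 to 11187 CPM in FDCs, 6866 to 12518 in MRCs, 13471 to 17335 in IFRCs, 17391 to 20967 in TBRCs and 23583 to 26571 in MedRCs, and all 8 were detected in each type. The means of Fos, Jun, Junb, Egr1 and Atf3 followed this order, as did Ier2 but for TBRCs (1007 CPM) and MedRCs (1000 CPM). Hspa1b went the other way, with means of 283 CPM in FDCs, 381 in MRCs, 127 in IFRCs, 141 in TBRCs and 140 in MedRCs. Hspa1a had no such order, with means of 327, 360, 209, 365 and 354 CPM in the same types. The part of this response in the Hes1 difference was not tested. Hey1 and Heyl, the other targets, stayed near the limit of detection. Hey1 was at 0 to 7.05 CPM and Heyl at 0 to 3.93 CPM over the 15 sums, and Heyl had no UMI in MRCs.

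Across the members, 18 of 70 pairs of types were called (in a given pair of types, 3.3% to 31.5% of all genes were), 5 for Dll4, 4 for Hes1, 3 each for Dll1, Jag1 and Notch3, and 0 for Notch1 and Notch2; for Notch1 and Notch2 edgeR's unadjusted p was below 0.05 in 1 pair, MedRCs against FDCs for Notch1. When the types were ordered by the mean of each member, 1 of 28 neighbouring pairs differed, the step in Dll4 from FDCs to IFRCs, a pair in which 24.3% of all genes differed. No member differed between IFRCs and TBRCs or between TBRCs and MedRCs, where 4.44% and 4.09% of all genes did. The 814 barcodes that passed none of the gates held Notch3 at 69.6 to 78.0 CPM, Hes1 at 95.7 to 146 CPM and Dll4 at 10.6 to 23.6 CPM.

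Some FDC barcodes held little Malat1, a nuclear RNA whose share falls when a nucleus is lost. Of the 149 FDC barcodes, 49 had Malat1 under 1% of UMIs, and these carried 19.0% of FDC UMIs but 2 of 83 Dll4 UMIs (9.26 CPM, exact 95% interval 1.12 to 33.4), 1 of 32 Hes1 UMIs and 0 of 11 Notch3 UMIs. The 100 with at least 1% Malat1 held Dll4 at 56.7, 130.0 and 97.5 CPM in 2-IC replicate 1, 2-IC replicate 2 and 1-IC, and Hes1 at 38.5, 46.9 and 4.88 CPM. With these 100 alone, the FDC contrast was 1.66 for Dll4 (adjusted p = 0.00068), -2.23 for Notch3 (adjusted p = 0.0024) and -1.48 for Hes1 (adjusted p = 0.0019).

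**Figure D3:**
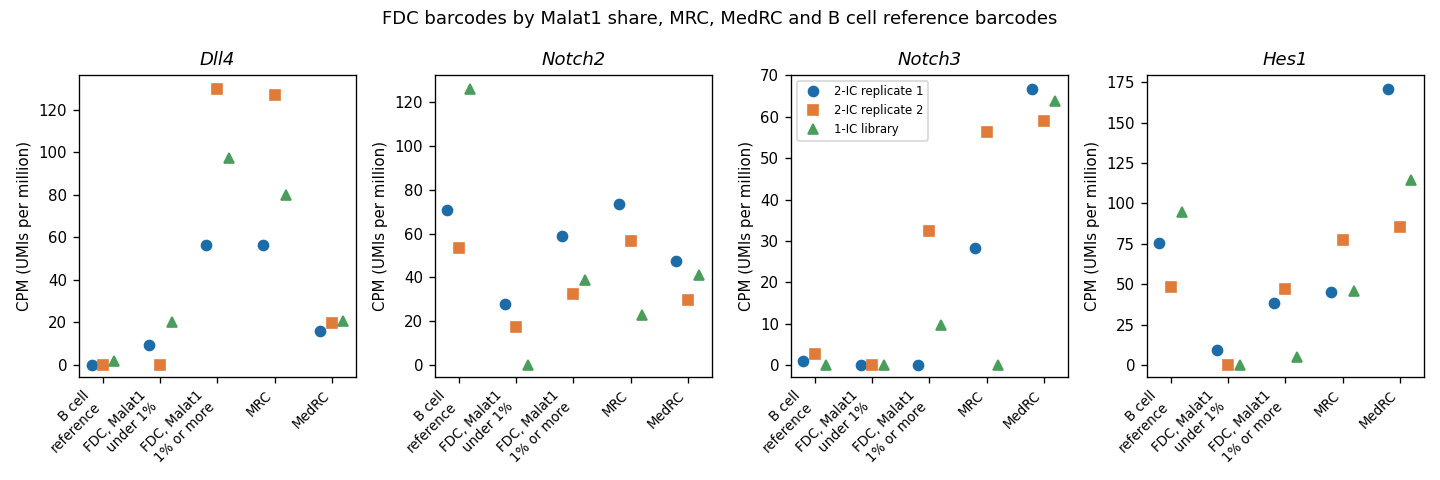
Level (CPM, y axis, linear, a separate scale for each gene) of Dll4, Notch2, Notch3 and Hes1 by library in B cell barcodes, FDCs under and at or over 1% Malat1, MRCs and MedRCs. FDCs under 1% Malat1 held 2 Dll4 UMIs in all, and B cell barcodes held Notch2 and Hes1 but almost no Dll4 or Notch3.

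Endothelial cells are a strong source of Dll4 in many tissues, and their genes were therefore summed. A list of 7 blood endothelial genes summed to 0 to 28.2 CPM in the 15 sums. The contaminant filter, meant in part to take out endothelial cells, had already removed barcodes with Cldn5, Egfl7 or Ly6c1 UMIs. A low sum was thus partly set by the filter. Kdr and Tie1 were at or near 0 in every type. Cdh5 had means of 5.43 CPM in FDCs and 5.64 CPM in MRCs, where Dll4 was highest, against 0 to 0.705 CPM in the other types. By library Cdh5 was at 5.46, 2.98 and 7.86 CPM in FDCs and 16.9, 0 and 0 CPM in MRCs (2-IC replicate 1, 2-IC replicate 2 and 1-IC). None of these values exceeded the level that 3 UMIs give. Emcn and Tek were higher in mean in IFRCs (8.95 and 6.83 CPM) than in FDCs (0.607 and 1.21 CPM). 3 lymphatic endothelial genes summed to 14.9 to 29.1 CPM in FDCs and 7.05 to 34.3 CPM in MRCs, and to no more than 2.48 CPM in the other types. Most of this was Flt4, with means of 17.7 CPM in FDCs and 21.3 CPM in MRCs. Prox1 had means of 6.14 CPM in FDCs and 0 in MRCs. Lyve1 is a contaminant gene, so the filter left it at 0 in every kept barcode. Of the removed barcodes, 170 held at least 2 UMIs of the blood endothelial list, and Dll4 in these was at 23.8 CPM. The part of blood or lymphatic endothelial RNA in the Dll4 values was not tested.

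The wider pathway was followed with 51 further genes, of which 29 passed the low-count filter. 5 of the 29 differed among the types, where 30.2% of all genes did. In the FDC contrast 3 were higher and 2 lower, where 13.3% and 11.1% of all genes were, with a median contrast of -0.09 against 0.0004 over all genes. Poglut1, which adds O-glucose to Notch receptors, was at 95.2 ± 6.07 CPM in FDCs and at 22.4 to 50.6 CPM in the means of the other types (log2 fold change 1.52 ± 0.26, adjusted p = 8.83e-05). Adam10, the protease that makes the first ligand-induced cut, was at 92.2 ± 60.5 CPM in FDCs and 130 ± 53.9 CPM in MRCs, against 42.6 to 55.0 CPM in the other means (FDC contrast 0.75 ± 0.25, adjusted p = 0.0310). Mib2, a ubiquitin ligase that acts on ligands, differed among the types (adjusted p = 0.0105), with means of 50.1 CPM in MRCs, 35.7 in FDCs, 31.2 in IFRCs, 18.8 in MedRCs and 12.5 in TBRCs. Dtx4, of the Deltex family, was highest in MedRCs (69.1 ± 16.5 CPM) and at 22.7 CPM in both FDCs and MRCs (adjusted p among types 0.00491). Maml2, a coactivator of the nuclear complex, had no UMI in MRCs and means of 13.3 to 22.9 CPM elsewhere (adjusted p among types 0.0405).

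3 further genes, named after their values were seen because the counts above are small, passed the FDC contrast: Psen2, a catalytic subunit of gamma-secretase, at 0.66 ± 0.20 (adjusted p = 0.0181), Ncstn, another subunit of that complex, at -0.76 ± 0.25 (adjusted p = 0.0306), and Ctbp1, a corepressor, at -0.62 ± 0.22 (adjusted p = 0.0415). Subunits of the same protease complex thus lay on both sides of 0. Rbpj itself had means of 65.7 CPM in FDCs and 83.97 to 108 CPM elsewhere and was not called (-0.38 ± 0.20, adjusted p = 0.201). Of the remaining ligands, receptor and targets, Dll3 and Jag2 had 1 and 2 UMIs, Notch4 13, Hey2 5 and Hes5 0 UMIs in the gated types, too few to test.

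**Figure D4:**
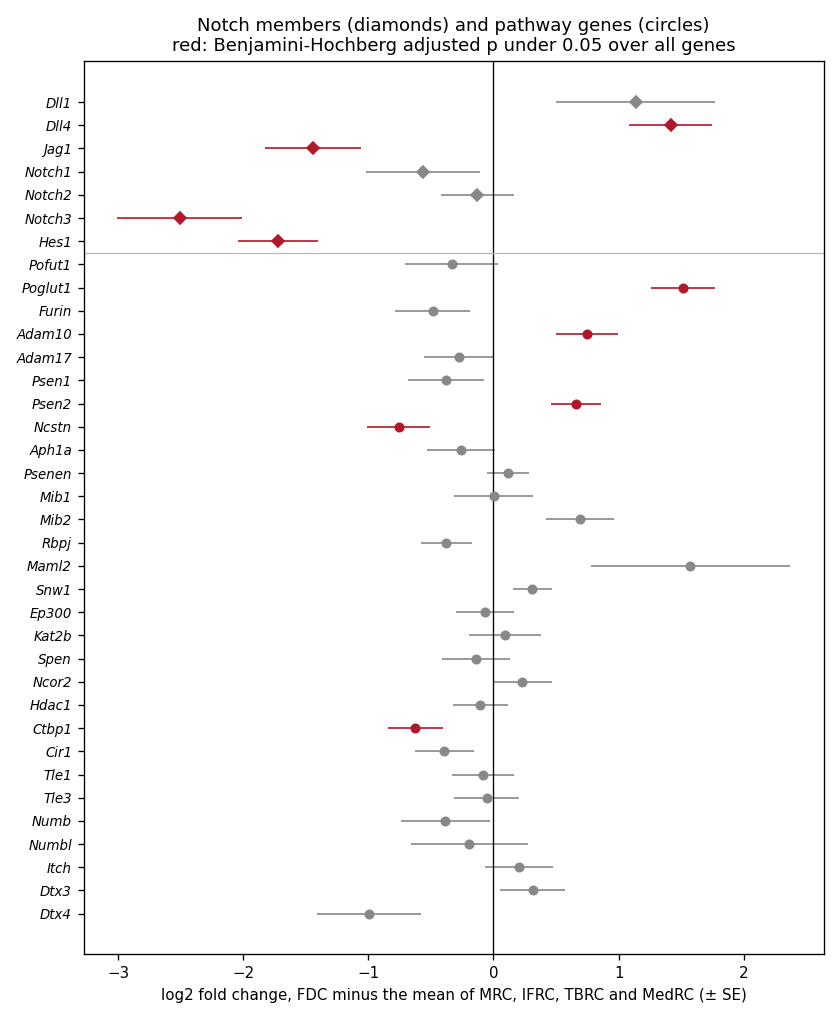
Log2 fold change of FDCs against the mean of the other 4 types (x axis, with SE) for the 7 tested members (diamonds) and the 29 tested pathway genes (circles), in red where the adjusted p was under 0.05. Dll4 at 1.42 and Poglut1 at 1.52 lie highest among the called genes, and Notch3 at -2.51 lowest.

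Antigen exposure could be compared only as values, since 1 library came from mice with a single IC. A member counted as apart when the 1-IC level was at least 2-fold above or below both 2-IC levels, among genes with 50 CPM or more in any library. In FDCs 2 members reached this level, in IFRCs 4 and in MedRCs 3, and none of them was apart (6.18%, 3.91% and 2.7% of all genes were). So few members cannot show whether they differ from other genes in this. Jag1 was higher in MRCs with 1 IC (68.5 CPM from 6 UMIs, exact 95% interval 25.2 to 149; 12.9% of all genes), against 33.9 and 14.1 CPM with 2 ICs. Notch2 was higher in TBRCs with 1 IC (135 CPM, interval 67.5 to 242; 9.36% of all genes), against 52.0 and 24.2 CPM. With 1 UMI at each gate the Notch2 call was lost. Hes1 was then called lower with 1 IC in FDCs (6.95% of all genes were apart) and TBRCs (9.82%). With a limit of 20 CPM Hes1 was called lower in FDCs (6.74% of all genes were apart). Hes1 in FDCs, under the 50 CPM limit, was at 3.93 CPM with 1 IC (1 UMI, interval 0.0995 to 21.9), against 32.8 and 38.8 CPM with 2 ICs. The FDC barcodes removed by the contaminant genes went the other way. In these Hes1 was at 109 CPM with 1 IC, against 65.7 and 56.4 CPM with 2 ICs. B cell barcodes had the same order of libraries, with Hes1 at 94.6 CPM with 1 IC and 75.4 and 48.4 CPM with 2 ICs. The part of B cell RNA in the removed FDC barcodes was not tested. Dll4 in FDCs at 82.5 CPM with 1 IC lay between its 2-IC values.

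Dll4, Notch3 and Hes1 were also read in the same barcodes, where a deeper barcode is more likely to hold a UMI of any gene. Over the 5 types, barcodes with a Dll4 UMI held Hes1 at 98.1, 93.5 and 33.7 CPM in 2-IC replicate 1, 2-IC replicate 2 and 1-IC, and barcodes without one at 138, 86.6 and 83.1 CPM. Notch3 was at 41.5, 79.8 and 33.7 CPM with Dll4 and at 64.7, 66.3 and 55.7 CPM without, so that both genes were lower with Dll4 in 2 of 3 libraries and higher in 2-IC replicate 2. This split pools the 5 types, so its direction cannot be told apart from the differences between types. In IFRCs, 36, 30 and 5 barcodes held a Dll4 UMI, few in 1-IC. Hes1 was at 106, 105 and 0 CPM in these and at 114, 82.5 and 72.4 CPM in the others. Notch3 there was at 70.8, 118 and 23.1 CPM (the last from 1 UMI) with Dll4 and 80.1, 72.5 and 72.4 CPM without. In MedRCs, Hes1 was at 127, 78.1 and 97.2 CPM with Dll4 (37, 18 and 8 barcodes) and 176, 87.2 and 117 CPM without. Notch3 there was at 42.4, 57.7 and 111 CPM with and 69.4, 59.1 and 56.4 CPM without. IFRCs with a Notch3 UMI held Hes1 at 137, 99.3 and 68.3 CPM in 2-IC replicate 1, 2-IC replicate 2 and 1-IC, and IFRCs without one at 96.6, 74.8 and 58.8 CPM. In MedRCs, the values were 189, 85.3 and 98.5 CPM with and 162, 86.0 and 122 CPM without. Hes1 was thus higher with Notch3 in 3 of 3 libraries for IFRCs and in 1 of 3 for MedRCs. The 1-IC values of IFRCs rest on 10 Hes1 UMIs with Notch3 and 11 without. These are descriptions without a test.

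The 3 genes most like each member over the 15 sums were taken by Pearson's r of log2 CPM, as a description over sums that share libraries and depth. Dll4 was most like Ddit4 (r = 0.91), Azin2 (0.89) and Blnk (0.89), and Dll1 like Mau2 (0.83), Socs2 and Camsap1 (0.82 each). Jag1 was most like Rasl11a (0.93), Myl9 (0.92) and Ms4a4d (0.90). Notch3 was most like Asph (0.95), Man1c1 (0.94) and Arrdc4 (0.92), and Hes1 like Gas1 (0.96) and the collagen genes Col1a1 (0.96) and Col1a2 (0.94). Notch1 was most like Il1rl2 (0.96), Fbn1 and Cc2d2a (0.91 each), and Notch2 like Sdf2 (0.92), Surf1 (0.90) and Glmp (0.83). Between members, r was 0.59 for Dll4 with Dll1, -0.52 for Dll4 with Notch3, -0.51 for Dll4 with Hes1 and 0.65 for Notch3 with Hes1. The ligand Jag1 had r of 0.65 with Hes1, -0.58 with Dll1 and -0.57 with Dll4. Notch1 had r of 0.54 with both Notch3 and Hes1. The remaining pairs lay between -0.36 (Dll4 with Notch2) and 0.44 (Jag1 with Notch3).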

How the data were processed

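Cells sorted from LNs were sequenced with the 10x Genomics 3' kit. The authors deposited raw UMI counts per gene and barcode, made with Cell Ranger (5.0.0 in the matrix header) on GRCm38 (mm10), without normalization. A 3' count does not tell isoforms apart. Libraries were grouped by their titles. The short descriptions of the 2-IC libraries differ although their titles give the same treatment, and they were treated as replicates. As in the study's methods, barcodes with fewer than 200 genes, over 10% mitochondrial UMIs or any UMI of 13 contaminant genes were left out, and no doublet caller was run. Gates used at least 2 UMIs of Cr2, Madcam1, Tnfsf11, Fmod or Inmt in a fixed order. Counts were summed per library and type (15 sums of at least 5 barcodes) and fitted in edgeR 4.0.16 (R 4.3.3) with TMM, filterByExpr and the library as a block, since the types of a library come from the same suspension, leaving 8 residual degrees of freedom. The 5 gating genes were not tested. The fit was tested on simulated data. DESeq2 1.42.0 and further settings were alternatives. Exact intervals are at 95%, and a count of 0 allows 3 counts. The members, lists and tests were chosen with earlier results of these data known. Named genes are the members, up to 12 pathway genes called among the types, and the 3 genes most like each member. Gene positions are from GENCODE vM21 (GRCm38).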

Additional observations from a re-analysis of the deposited data

Results flagged for a closer look

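Barcodes that passed the gene and mitochondrial limits but held UMIs of the contaminant genes entered no comparison of types, and each member was detected in these 2270 barcodes above the limit that a count of 0 allows. The ligands were at 13.9 CPM (Dll4), 3.50 CPM (Dll1) and 21.0 CPM (Jag1). The receptors were at 23.0 CPM (Notch1), 50.1 CPM (Notch2) and 34.2 CPM (Notch3), and the targets at 78.0 CPM (Hes1), 2.47 CPM (Hey1) and 2.16 CPM (Heyl). Of the UMIs in barcodes past both limits, these barcodes held 59.0% for Notch2, 45.8% for Hes1, 39.9% for Dll4 and 38.7% for Notch3. Over all genes they held 11510160, 6199118 and 1706922 UMIs in 2-IC replicate 1, 2-IC replicate 2 and 1-IC. All barcodes, including those that failed the limits, held 20607903, 12788101 and 3766526. A large share in the removed barcodes was thus not particular to the members.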

How the results depend on the processing

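Notch3 and Hes1 passed both tests, and Dll4 the test among types, with the same direction in every setting in which they could be fitted; the FDC contrast ranged from -4.20 to -1.51 for Notch3, from -2.25 to -0.82 for Hes1 and from 0.65 to 2.28 for Dll4. Without each library in turn, 6403 to 8368 genes were tested, and 1058 to 1930 genes and 3 to 4 members differed among types. In FDCs, 562 to 880 genes (1 member) were higher and 241 to 759 (2 to 3 members) lower, and 1 to 2 neighbouring pairs differed. Without the contaminant filter 3273 of 8981 tested genes (6 members) differed, and 1748 were higher (0 members) and 1374 lower (4 members) in FDCs. Without the replicate block 1044 of 6819 tested genes differed, and 562 were higher and 365 lower in FDCs. Among members it lost only Jag1 among types (adjusted p = 0.118). With cells thinned to 2000 UMIs only 1714 genes, with Hes1 alone of the members, passed the low-count filter. Of these, 691 genes (1 member) differed, 286 were higher (0 members) and 277 lower (1 member) in FDCs, with 0 neighbouring pairs. 3 neighbouring pairs differed without the low-count filter and 0 when IFRC barcodes with Inmt or Fmod were left out, a setting chosen after seeing the data, as was leaving out shared barcodes. Jag1 among types was also lost at 1 UMI per gate (adjusted p = 0.204), without 2-IC replicate 1 (0.377) and without 1-IC (0.0652). The Notch2 contrast, never called, was 0.013 at 3 UMIs per gate, 0.25 without the contaminant filter and 0.029 with FDCs at or over 1% Malat1. The causes were not tested. Dll1, Hey1, Heyl and all MRC values are limited by depth.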
